A study of Rattus norvegicus with 50 samples.

Results

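The core circadian clock was described in the lungs of young rats through 10 genes, Arntl, Clock, Npas2, Per1, Per2, Per3, Cry1, Cry2, Nr1d1 and Nr1d2. They were found by gene name among the gene spots of a one-colour Agilent rat array. All 10 were on the array and all 10 passed the filter against negative control spots, among 25208 genes that passed it. The 10 genes carried 15 probes and 35 spots. They were chosen by their normalized log2 levels in these same rats, across arms and days, so every value of the 10 genes is given here as a description, with no test. Tests were kept for 26 other genes of the clock pathway.

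The arrays came from 50 male rats of the F344 strain, an inbred laboratory strain, that were 12 weeks old and breathed through the nose only. In the 5 Exposed groups the rats inhaled a nanostructured aerosol of TiO2 P25, a titanium dioxide powder, at 10 mg/m3, for 6 h a day and 5 days a week during 4 weeks. In the 5 Control groups the rats inhaled air without particles on the same schedule. Lungs of 5 rats in each of the 10 groups were taken right after the last exposure, called D0, or after a recovery of 3 days (D3), 28 days (D28), 90 days (D90) or 180 days (D180). RNA came from 1 lobe, the accessory lobe, and each rat had its own array, labelled with the dye Cy3. The hour of the day at which lungs were taken is not given in the sources used here, so exposure and hour of collection cannot be told apart in any comparison below. Rats of different days also differed in age and in time since the exposure.

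The mammalian clock is a loop of transcription and repression with a period of about a day, and it runs in most cells of the lung, including the airway epithelium and resident macrophages. The proteins of Arntl, which is also called Bmal1, and of Clock or its relative Npas2 pair up and activate genes through E-boxes, among them Per, Cry, Nr1d1 and Nr1d2. The PER and CRY proteins then repress that pair, and the nuclear receptors made from Nr1d1 and Nr1d2, REV-ERB alpha and beta, repress Arntl and Npas2 through ROR elements. So Arntl and Nr1d1 usually peak at opposite hours in tissues that keep time. In the lung the clock is known to modulate the recruitment of neutrophils and the response to inhaled agents.

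Promoter windows are shown for the 3 genes that stand for the 3 branches of the loop, so that the motifs named above can be seen. Of the 10 genes, 9 had an entry in the RefSeq promoter table of build GRCr8, with 11 windows of 300 bases, and Cry1 was not found there. Each window spans a transcription start, on the strand of the gene. Capitals mark exact matches on either strand to the motifs CACGTG (E-box), CACGTT (E'-box), AGGTCA (the half-site of ROR elements), TAGGTCA (a longer form that contains AGGTCA), TTATGTAA (D-box) and TGACGTCA (cAMP response element). A match is a description of letters, not a site in use.
Arntl (Bmal1), chr1:176766078-176766377, plus strand: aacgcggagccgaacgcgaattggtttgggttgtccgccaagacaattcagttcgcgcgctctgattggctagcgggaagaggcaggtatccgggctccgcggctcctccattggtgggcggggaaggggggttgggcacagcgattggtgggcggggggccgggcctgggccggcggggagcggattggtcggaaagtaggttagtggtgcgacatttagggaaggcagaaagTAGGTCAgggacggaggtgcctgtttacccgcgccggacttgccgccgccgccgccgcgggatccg
Per2, chr9:99496944-99497243, minus strand: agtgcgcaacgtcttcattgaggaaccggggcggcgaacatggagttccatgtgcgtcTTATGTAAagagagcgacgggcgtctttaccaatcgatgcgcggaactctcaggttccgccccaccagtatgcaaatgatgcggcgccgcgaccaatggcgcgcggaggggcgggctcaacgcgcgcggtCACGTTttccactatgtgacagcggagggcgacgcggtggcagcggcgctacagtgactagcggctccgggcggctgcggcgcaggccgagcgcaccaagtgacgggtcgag
Nr1d1, chr10:84231763-84232062, minus strand: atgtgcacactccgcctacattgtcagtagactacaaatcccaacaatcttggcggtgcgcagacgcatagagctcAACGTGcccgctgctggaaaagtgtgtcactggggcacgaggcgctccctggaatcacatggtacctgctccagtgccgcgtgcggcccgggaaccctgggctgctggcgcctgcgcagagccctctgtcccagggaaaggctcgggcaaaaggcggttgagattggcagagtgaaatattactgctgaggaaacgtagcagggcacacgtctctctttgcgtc
Nr1d1, second start, chr10:84229405-84229704, minus strand: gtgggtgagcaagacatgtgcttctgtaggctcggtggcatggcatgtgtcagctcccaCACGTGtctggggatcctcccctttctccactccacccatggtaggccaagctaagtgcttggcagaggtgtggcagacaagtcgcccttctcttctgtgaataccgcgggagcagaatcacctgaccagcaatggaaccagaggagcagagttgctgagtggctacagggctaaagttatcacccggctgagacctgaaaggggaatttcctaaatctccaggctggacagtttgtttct

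The Arntl window held TAGGTCA, starting 16 bases before the start site, a match found in 2.63% of all 33469 windows of the table. The Per2 window held a D-box, found in 0.893% of windows, and an E'-box, found in 4.83%. One Nr1d1 window held an E'-box and the other an E-box, which 6.42% of windows held. The Nr1d2 window held AGGTCA, found in 16.2% of windows, and the Cry2 window held an E'-box. No window of the 10 genes held TGACGTCA, which 1.83% of windows held, and the windows of Clock, Npas2, Per1 and Per3 held none of these letters.

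The arrays varied in brightness before normalization. The median signal of gene spots ran from 198 to 473.5 per array, and the 95th percentile of negative controls from 2.74 to 40.6. Spots well above background made up 68.8% to 84.5% of gene spots per array, and arrays of the same group correlated at r = 0.973 to 0.996 over all genes. The 10 lung markers fixed for this work, surfactant genes and Scgb1a1 among them, were measured in all rats, and limma called none of the 10 in any arm comparison, with 2 to 5 of them at an unadjusted p under 0.05 by day. The arrays lay on 7 slides with 4 to 6 groups each. D0, D3 and D28 shared slides, D90 and D180 shared others, and 1 exposed rat of D3 lay with the later days. Of the labels' animal numbers, 5 lay outside the run of their group, and values without those 5 rats are given where they matter. Leaving rats out can only narrow a group, so arms can part that way but cannot come to overlap. Levels below are normalized log2 intensities of the brightest probe of a gene, so 1 unit is a doubling, and levels of different genes are not compared with each other. The array measures RNA of the whole lobe, so fewer cells of a type and less RNA per cell cannot be told apart.

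The arms differed in opposite directions early and late. At D0 and D3, Arntl was higher in exposed than in control rats, while Per2, Per3, Nr1d1 and Nr1d2 were lower. From D28 to D180, Arntl, Npas2 and Cry1 were lower in exposed rats and Nr1d1 and Nr1d2 were higher. At D0 all 5 exposed rats lay above all 5 control rats for 1 of the 10 genes (Arntl) and below them for 4 (Per2, Per3, Nr1d1 and Nr1d2), where 4.76% and 3.77% of all genes tested did so. At D3 the counts were 2 above (Arntl and Npas2) and the same 4 below, against 3.35% and 3.42% of all genes. At D28 there were 3 above (Per3, Nr1d1 and Nr1d2) and 3 below (Arntl, Npas2 and Cry1), against 2.23% and 1.57%. At D90 there were 4 above (Per2, Per3, Nr1d1 and Nr1d2) and 3 below (Arntl, Npas2 and Cry1), against 2.20% and 1.63%. At D180 there were 3 above (Per2, Nr1d1 and Nr1d2) and the same 3 below, against 2.77% and 1.46%. Because these same contrasts chose the genes, nothing is read from the counts.

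**Figure D1:**
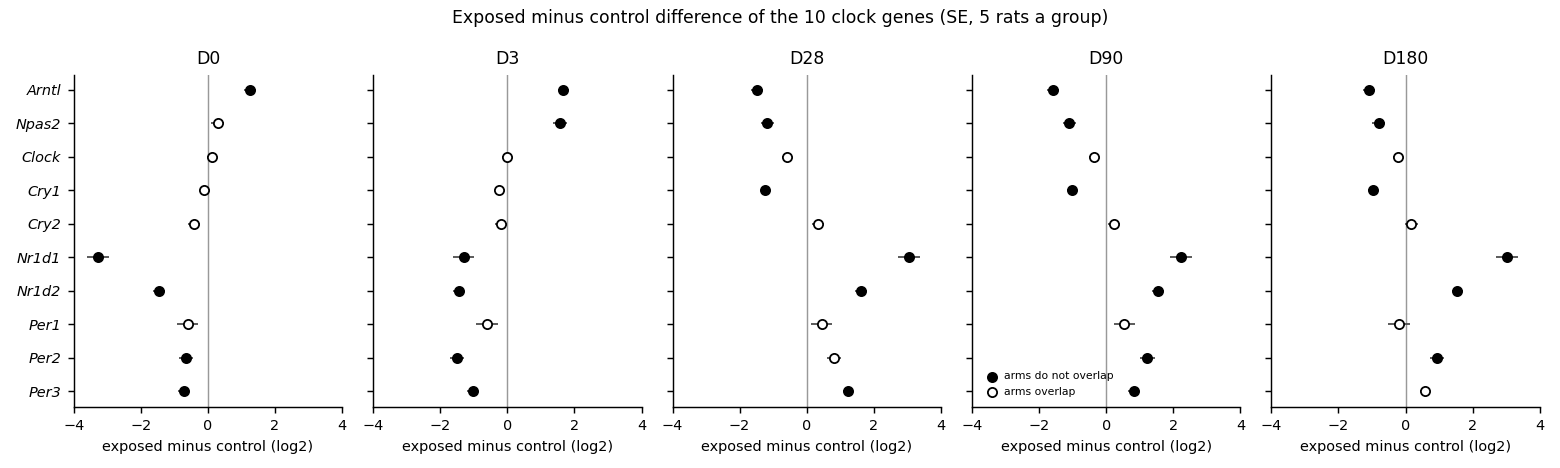
Exposed minus control difference of each of the 10 genes at each day, in log2 units of normalized intensity, with the standard error of the fit over 50 arrays as bars. Filled points mark genes whose 5 exposed and 5 control rats do not overlap. Nr1d1 lies at -3.27 at D0 and at 3.04 at D28, and Arntl lies on the other side of 0 at every day.

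Arntl encodes the partner that both CLOCK and NPAS2 need. In control rats of D0 it measured 7.53, 7.70, 7.48, 7.77 and 7.95. In exposed rats of D0 it measured 8.88, 9.14, 8.75, 9.04 and 8.91. All exposed rats were higher, by 1.26 (SE 0.18), a fold of 2.4. At D3 the control rats measured 8.11, 8.12, 8.06, 8.08 and 7.91. The exposed rats measured 9.75, 10.07, 9.98, 9.70 and 9.15. Again all exposed rats were higher, by 1.67 (SE 0.18), a fold of 3.19.

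From D28 on, Arntl was high in every control rat. The control rats of D28 measured 10.49, 10.54, 10.85, 10.57 and 10.74. The exposed rats of D28 measured 9.82, 9.71, 8.80, 8.85 and 8.66, and 2 of them lay well above the other 3. The difference was -1.47 (SE 0.18), a fold of 2.77, with all exposed rats below all control rats. At D90 the control rats measured 10.90, 10.72, 10.89, 10.79 and 10.61. The exposed rats measured 9.52, 9.72, 9.09, 9.06 and 8.61. No exposed rat reached a control rat, and the difference was -1.58 (SE 0.18). At D180 the control rats measured 11.02, 10.90, 10.81, 10.78 and 10.78. The exposed rats measured 10.12, 9.66, 9.95, 9.53 and 9.56. The difference was smaller than at D28 or D90, -1.09 (SE 0.18), and the arms still did not overlap.

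Within the control arm, the order of the Arntl means was D180, D90, D28, D3 and D0. The 3 later days overlapped with their neighbours in that order, D3 overlapped with D0, and between D28 and D3 lay a step of 2.58 with no overlap. The control means spanned 3.17 and the exposed means 0.82, and in exposed rats every neighbouring pair of days overlapped. The step between D3 and D28 in control rats lay within slides: on all 4 slides with both days Arntl was higher at D28, by 2.44 to 2.77. Within the 3 slides that held exposed rats of both days, Arntl was lower at D28, by -1.12 to -0.39.

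Npas2, which can take the place of CLOCK beside ARNTL, followed Arntl except at D0. At D0 control rats measured 7.05, 7.43, 7.06, 7.13 and 7.40 and exposed rats 7.22, 7.77, 7.20, 7.72 and 7.60, and the arms overlapped with a difference of 0.29 (SE 0.19). At D3 control rats measured 8.07, 8.15, 7.74, 7.75 and 7.47. Exposed rats of D3 measured 9.54, 9.64, 9.69, 9.52 and 8.63, and all were above the control rats, by 1.57 (SE 0.19). The lowest of those exposed rats lay far from the other 4. At D28, D90 and D180 the control rats ranged from 10.26 to 10.60, 10.27 to 10.49 and 10.31 to 10.72. The exposed rats of those days ranged from 8.59 to 10.00, 8.74 to 9.81 and 9.51 to 9.89, all below the control rats of the same day. The differences were -1.18 (SE 0.19), -1.10 (SE 0.19) and -0.80 (SE 0.19).

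The 2 probes of Npas2 did not behave alike. The brighter probe, used above, lies at chr9:38433884-38433943 of build rn4, and the other at chr9:38417496-38417555. The dimmer probe differed between arms by -0.07, 0.20, 0.09, -0.13 and -0.40 from D0 to D180, and it was well above background on all 50 arrays. With the mean of both probes the Npas2 difference fell to 0.89 at D3 and to -0.54 at D28, and the arms then overlapped at both days. The 2 probes of Arntl gave differences of the same sign at every day, and so did the 3 probes of Per3. The 2 probes of Clock had opposite signs at D0, 0.11 and -0.37, and at D3, -0.02 and 0.19.

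Clock, the third gene of the activating arm, moved little. Its control means ran from 7.75 ± 0.29 (SD, n = 5) at D0 to 8.32 ± 0.23 (SD, n = 5) at D28. Its exposed means ran from 7.86 ± 0.16 (SD, n = 5) at D0 to 7.67 ± 0.16 (SD, n = 5) at D180, and the neighbours in order overlapped in both arms. The largest difference between arms was -0.60 (SE 0.15) at D28, where the rats still overlapped, and it was under 1.5-fold at the other 4 days. With slide as a block, on 75th percentile scaling, or with the mean of both probes, the D28 rats no longer overlapped.

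**Figure D2:**
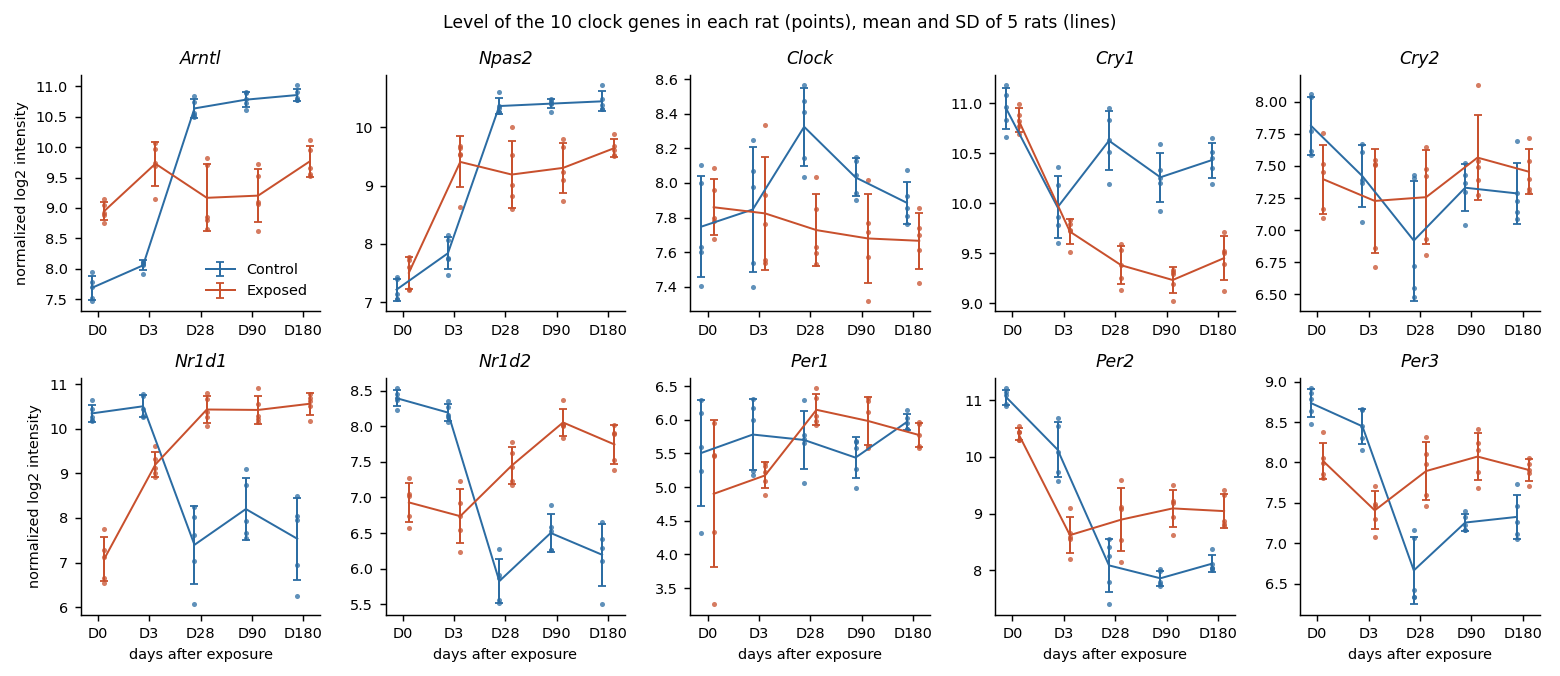
Level of each of the 10 genes in each of the 50 rats as normalized log2 intensity, by day after exposure, control in blue and exposed in orange, with the mean and SD of 5 rats as lines and bars. Each panel has its own scale. The arms of Arntl, Npas2, Nr1d1, Nr1d2, Per2 and Per3 cross between D3 and D28, while those of Cry1 part there. The means of Per1 and Cry2 also cross there, with arms that overlap at every day.

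Nr1d1 encodes REV-ERB alpha, the repressor of Arntl. In control rats of D0 it measured 10.64, 10.45, 10.19, 10.18 and 10.26. In exposed rats of D0 it measured 7.76, 7.13, 7.29, 6.65 and 6.54. All exposed rats were lower, by the largest difference of the 10 genes at that day, -3.27 (SE 0.33), a fold of 9.66. At D3 control rats measured 10.79, 10.29, 10.74, 10.44 and 10.27. Exposed rats measured 9.33, 8.93, 9.13, 9.01 and 9.61. All exposed rats were lower still, but by less, -1.31 (SE 0.33), a fold of 2.47.

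At D28 the arms had changed places. Control rats measured 6.08, 7.61, 7.02, 8.25 and 8.02. Exposed rats measured 10.06, 10.25, 10.67, 10.38 and 10.80. The exposed rats were all higher, by 3.04 (SE 0.33), a fold of 8.2, and the control rats were spread widely. At D90 control rats measured 7.55, 7.67, 7.94, 9.10 and 8.75. Exposed rats measured 10.28, 10.15, 10.56, 10.22 and 10.91. All exposed rats were higher by 2.22 (SE 0.33). At D180 control rats measured 6.94, 7.95, 8.04, 6.24 and 8.50. Exposed rats measured 10.63, 10.17, 10.70, 10.52 and 10.79. All were higher by 3.03 (SE 0.33), a fold of 8.15.

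In the order of the control means of Nr1d1, D3 and D0 overlapped at the top, a step of 2.14 with no overlap followed, and D90, D180 and D28 overlapped with their neighbours below. In exposed rats D180, D28 and D90 overlapped at the top, D3 stood alone 1.22 below D90, and D0 stood alone 2.13 below D3. So Nr1d1 differed between days in both arms, and the SD of its control groups was 0.69 to 0.92 from D28 on, against 0.20 and 0.25 at D0 and D3. Of all genes tested, 27 had a wider range of the 10 group means than Nr1d1, 43 than Npas2, 48 than Per2 and 49 than Arntl. For Nr1d2, Per3, Cry1, Per1, Cry2 and Clock the numbers were 136, 448, 1056, 3195, 7010 and 11112. The ranges come from the levels that chose the genes, so nothing is read from these ranks. Without the rats whose animal number lay outside the run of their group, no difference of Nr1d1 changed sign, and over all alternatives tried the D28 difference lay between 2.56 and 3.53.

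Nr1d2 encodes REV-ERB beta and followed Nr1d1 with a smaller range. Its probe has no position in the array files. At D0 control rats ranged from 8.23 to 8.53 and exposed rats from 6.56 to 7.28. At D3 they ranged from 8.06 to 8.35 and from 6.24 to 7.23. Exposed rats were lower at both days, by -1.46 (SE 0.17) and by -1.45 (SE 0.17). At D28 control rats measured 5.55, 5.87, 5.52, 5.91 and 6.28 and exposed rats 7.17, 7.23, 7.42, 7.62 and 7.78. At D90 and D180 control rats ranged from 6.26 to 6.89 and from 5.51 to 6.66. Exposed rats ranged from 7.84 to 8.37 and from 7.38 to 8.02. Exposed rats were higher at all 3 days, by 1.62 (SE 0.17), 1.55 (SE 0.17) and 1.55 (SE 0.17). These sizes depended on the background correction: with normexp they were 0.95 at D28 and 0.99 at D180, with the same sign and no overlap.

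Unlike Nr1d1, Nr1d2 did not rise in exposed rats between D0 and D3. Its exposed means were 6.93 ± 0.28 (SD, n = 5) at D0 and 6.74 ± 0.38 (SD, n = 5) at D3, which overlapped, whereas the exposed means of Nr1d1 were 7.07 ± 0.50 (SD, n = 5) and 9.20 ± 0.27 (SD, n = 5), which did not. That difference between the genes was not tested.

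Per2 and Per3, which encode repressors of the ARNTL pair, lay on the same side as Nr1d1. Per2 in control rats measured 10.93, 11.14, 11.08, 11.20 and 10.89 at D0. In exposed rats of D0 it measured 10.44, 10.54, 10.29, 10.43 and 10.30, lower in all, by -0.65 (SE 0.21). At D3 control rats measured 9.73, 9.57, 10.09, 10.54 and 10.69 and exposed rats 8.56, 8.20, 8.65, 8.59 and 9.10, a difference of -1.51 (SE 0.21). At D28 control rats measured 8.56, 8.41, 8.25, 7.80 and 7.41 and exposed rats 8.54, 8.15, 9.11, 9.58 and 9.08. The D28 rats overlapped, and the difference of 0.81 (SE 0.21) had turned positive. Without control replicates 4 and 5 of D28, whose animal numbers lay outside the run of their group, it was 0.49. At D90 and D180 control rats ranged from 7.73 to 8.02 and from 8.01 to 8.37. Exposed rats were all higher, from 8.61 to 9.50 and from 8.78 to 9.41, by 1.23 (SE 0.21) and 0.93 (SE 0.21).

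Per2 and Cry1 were lower at D3 than at D0 in both arms. The control mean of Per2 went from 11.05 ± 0.13 (SD, n = 5) to 10.13 ± 0.49 (SD, n = 5), with no overlap. Its exposed mean went from 10.40 ± 0.11 (SD, n = 5) to 8.62 ± 0.32 (SD, n = 5), also with no overlap. In exposed rats the later 4 days then overlapped with their neighbours in order. Cry1 went from 10.94 ± 0.20 (SD, n = 5) to 9.96 ± 0.31 (SD, n = 5) in control rats and from 10.83 ± 0.12 (SD, n = 5) to 9.72 ± 0.12 (SD, n = 5) in exposed rats, with no overlap in either arm.

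Per3 in control rats ranged from 8.48 to 8.91 at D0 and from 8.16 to 8.67 at D3. In exposed rats it ranged from 7.81 to 8.37 and from 7.08 to 7.71, lower at both days by -0.72 (SE 0.16) and -1.04 (SE 0.16). At D28 control rats measured 6.34, 6.43, 7.06, 6.33 and 7.16 and exposed rats 7.46, 7.59, 7.99, 8.11 and 8.32, all higher, by 1.23 (SE 0.16), or by 0.82 with normexp. At D90 exposed rats were all higher by 0.82 (SE 0.16). At D180 the difference was 0.58 (SE 0.16) and the highest control rat, at 7.73, lay just above the lowest exposed rat, at 7.71. That control rat is 1 of those with an animal number outside the run of its group, and without those rats the arms did not overlap. The mean of the 3 probes of Per3 gave larger differences, 1.28 at D90 and 0.99 at D180.

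Per1, the third PER gene and one that glucocorticoids and cAMP are known to induce, was close to the background. It was well above background on 41 of 50 arrays, and on 2 of 5 in exposed rats of D3. Its arms overlapped at every day, and at D28 they did not once the rats with an animal number outside the run of their group were left out. The differences were -0.61 (SE 0.32) at D0 and -0.61 (SE 0.32) at D3. That of D0 lay between -0.90 (without control replicate 4) and -0.20 (without exposed replicate 3) when 1 rat was left out, and was -0.14 with normexp. After recovery they were 0.45 (SE 0.32), 0.54 (SE 0.32) and -0.20 (SE 0.32) at the 3 later days. The lowest value, 3.27 in 1 exposed rat of D0, lay over 1 unit below the other rats of that group. In both arms most neighbouring days in its order overlapped, with 1 exception, exposed rats of D180 above those of D3.

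Cry1, a repressor that tends to peak late in the cycle, had a pattern of its own. At D0 control rats measured 10.66, 11.08, 11.18, 10.96 and 10.83 and exposed rats 10.88, 10.77, 10.82, 10.69 and 10.99, with overlap. At D3 they measured 9.78, 9.61, 9.86, 10.18 and 10.37 and 9.51, 9.79, 9.73, 9.83 and 9.72, also with overlap. The differences of these days were -0.11 (SE 0.13) and -0.24 (SE 0.13). At D28 control rats measured 10.83, 10.95, 10.51, 10.63 and 10.19 and exposed rats 9.59, 9.25, 9.53, 9.38 and 9.14, all lower, by -1.24 (SE 0.13). At D90 and D180 control rats ranged from 9.92 to 10.59 and from 10.19 to 10.65. Exposed rats were all lower, from 9.03 to 9.34 and from 9.13 to 9.71, by -1.03 (SE 0.13) and -0.98 (SE 0.13). Cry1 thus had no early difference of opposite sign, unlike Arntl, Npas2, Per2, Per3, Nr1d1 and Nr1d2. Whether its difference changed between days was not tested.

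Cry2, the paralog of Cry1, showed no such drop. Its arms overlapped at every day, with differences of -0.42 (SE 0.19) at D0 and -0.19 (SE 0.19) at D3, and of 0.34 (SE 0.19), 0.23 (SE 0.19) and 0.17 (SE 0.19) at the 3 later days in turn. Its control means ran from 6.92 ± 0.47 (SD, n = 5) at D28 to 7.81 ± 0.23 (SD, n = 5) at D0, and neighbours in order overlapped in both arms. With slide as a block, the exposed rats lay below all control rats at D0 and D3, and at D180 they lay above them without the rats whose animal number was outside the run of their group.

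The differences held within slides for the 7 genes with the larger differences. At D0 and D3 both arms shared 4 slides, and at each later day 3. Arntl was higher in exposed rats on 4 of 4 slides at D0 and at D3 and lower on 3 of 3 at each later day. Nr1d1, Nr1d2, Per2 and Per3 were lower on 4 of 4 slides at D0 and D3 and higher on 3 of 3 at each later day. Npas2 was higher on 4 of 4 slides at D3 and on 2 of 4 at D0, and lower on 3 of 3 later. Cry1 was lower on 3 of 4 slides at D0 and D3 and on 3 of 3 later.

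How the variance of each gene divided between arm, day and their combination also set the genes apart, as a description over 50 rats. For Nr1d1, 76.3% of the sum of squares lay in the combination of arm and day, 7.2% in day and 6.4% in arm. For Nr1d2 the combination held 70.9% and for Per3 50.5%. For Arntl, day held 49.6% and the combination 43.5%. For Npas2 and Per2, day held 73.8% and 66.5%. For Cry1, day held 43.9% and arm 33.7%, the highest share of arm among the 10 genes. For Clock, Per1 and Cry2 most of the variance lay within groups, 56.5%, 61.0% and 60.3%.

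How the genes ran together is described arm by arm, over the 5 day means of each arm. Arntl and Nr1d1, which oppose each other in the loop, had r = -0.97 over the control means and 0.46 over the exposed means. Nr1d1 and Per2 had r = 0.93 over the control means and -0.80 over the exposed means, and Npas2 and Nr1d1 had r = -0.96 and 0.91. These 3 pairs thus had opposite signs in the arms. Arntl and Npas2 had the same sign, with r = 1.00 and 0.75, as did Nr1d1 and Nr1d2, with r = 0.99 and 0.72, and Npas2 and Per2, with r = -0.99 and -0.94. Over the 10 group means of both arms, which hide the opposite signs, Arntl and Nr1d1 had r = -0.61. Each value within an arm rests on 5 means that share slides and normalization, so it is a description with no test, and the difference between the arms was not tested.

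Rat by rat, Arntl and Nr1d1 were set against each other in a plane. Control rats filled 2 corners of it. At D0 and D3 all 10 had Arntl from 7.48 to 8.12 and Nr1d1 from 10.18 to 10.79. From D28 on all 15 had Arntl from 10.49 to 11.02 and Nr1d1 from 6.08 to 9.10. The exposed rats of D0 were low in Nr1d1 with Arntl between the control corners, with Arntl from 8.75 to 9.14 and Nr1d1 from 6.54 to 7.76. The exposed rats of D28, D90 and D180 were high in Nr1d1, from 10.06 to 10.91, with Arntl from 8.61 to 10.12, between the control corners. The exposed rats of D3 lay between, with Arntl from 9.15 to 10.07 and Nr1d1 from 8.93 to 9.61.

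**Figure D3:**
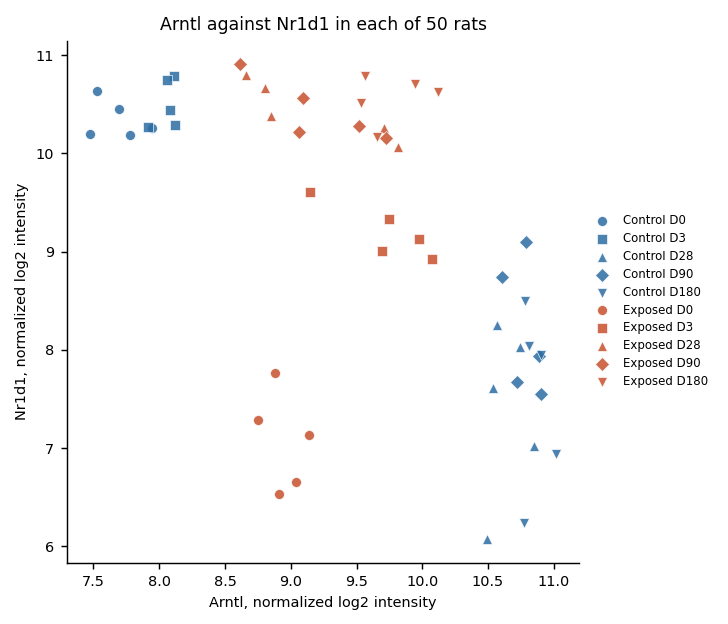
Arntl against Nr1d1 in each of the 50 rats, both as normalized log2 intensity, control in blue, exposed in orange, with a marker for each day. Control rats lie top left at D0 and D3 and bottom right from D28 on, exposed rats of D0 lie at the bottom centre, and exposed rats from D28 on lie top centre.

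Over all 10 genes, 2 principal components held 65.15% and 25.03% of the variance of the 50 rats, and the third 3.7%. On the first, Arntl (loading 0.45) and Npas2 (0.45) stood against Nr1d1 (-0.48), Per2 (-0.40), Nr1d2 (-0.36) and Per3 (-0.25). On the second, Cry1 (0.37) and Per2 (0.36) stood against Nr1d1 (-0.69) and Npas2 (-0.41). Placed by angle in that plane, the genes with a large loading followed each other as Nr1d2, Nr1d1, Npas2, Arntl, Cry1, Per2 and Per3. The signs of the components are arbitrary.

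The groups lay at different places in the same plane. Control rats of D0 and D3 scored from -4.08 to -2.24 on the first component, and control rats of the later days from 2.03 to 3.77. Exposed rats of all days scored from -1.96 to 1.36 on it, inside the gap between both sets of control rats. On the second component the exposed rats of D0 scored from 2.63 to 3.63, above every other rat. The exposed rats of D28, D90 and D180 scored from -1.86 to -0.91 on it. The components were computed from the same genes that were chosen for their levels, so no test was made of the places.

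**Figure D4:**
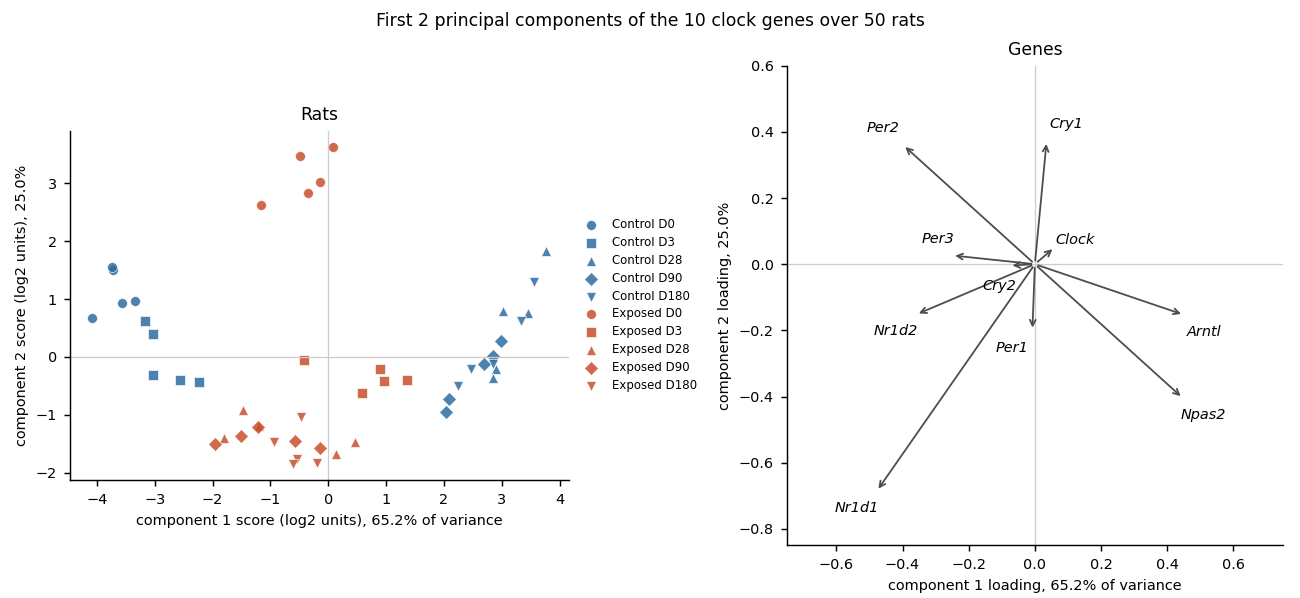
First and second principal component of the 10 genes over 50 rats, with rats by arm and day at left (scores in log2 units) and genes as arrows at right (loadings). Control rats lie at both ends of the first component, exposed rats lie between them, and exposed rats of D0 lie alone at the top.

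Some of the relation between genes was also present among rats of the same group. After each group mean was taken out, Arntl and Npas2 had r = 0.90 over the 50 rats, Per3 and Cry2 0.77, Nr1d1 and Nr1d2 0.61, and Arntl and Per2 -0.56. Clock ran against Per3 and Cry2, with r = -0.72 and -0.75. Arntl and Nr1d1 had r = -0.27. Rats of a group lay on several slides, so slide effects are included in these values.

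The genes whose pattern was most like that of Arntl were taken as the 5 highest and the 5 lowest Pearson correlations over the 50 arrays, among genes with a symbol outside the 10. The highest were Hs3st3a1 (r = 0.97), Tead3 (0.91), Cdkn2b (0.91), Kctd3 (0.89) and Trim2 (0.89). The lowest were Dbp (-0.94), Tef (-0.92), Epm2a (-0.90), RGD1566380 (-0.89) and Ifrd2 (-0.89). With the group means taken out, Hs3st3a1 kept r = 0.69 and Dbp -0.89. For Nr1d1 the highest were Rasd2 (0.80), Dbp (0.76), Prtg (0.71), Epm2a (0.68) and Ccdc116 (0.67). The lowest were Adm (-0.75), Nfil3 (-0.70), Mtfr1 (-0.66), Smtnl2 (-0.64) and Tmem140 (-0.64). With the group means taken out these were weaker, from -0.46 for Smtnl2 to 0.34 for Epm2a.

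The other genes of the clock pathway were a list of 30, of which 26 were tested. They were compared between arms with limma over all 25208 genes, and a gene was called where the Benjamini-Hochberg adjusted p was under 0.05 and the change, up or down, reached 1.5-fold. Earlier results of these data had already shown Dbp and Tef, so the list is no independent support. At D0, 2 of the 26 were over-expressed (Nfil3 and Bhlhe41) and 2 under-expressed (Dbp and Tef), and the same genes were called at D3. Over all genes, 2.77% were called higher and 1.51% lower at D0, and 1.98% and 1.51% at D3. At D28, 3 were over-expressed (Dbp, Tef and Bhlhe41) and limma called 0 under-expressed, with 2 lower at an unadjusted p under 0.05, against 0.861% and 0.468% of all genes. At D90, Dbp and Tef were over-expressed and Nfil3 under-expressed, against 0.246% and 0.135%. The same 3 genes were called at D180 in the same directions, against 0.246% and 0.0793%. The median difference of the list was -0.13, -0.10, -0.05, 0.01 and 0.02 from D0 to D180, beside -0.01, -0.01, 0.00, 0.00 and 0.00 for all genes.

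Dbp, an output of the clock that is activated through E-boxes and in turn acts at D-boxes such as that of Per2, changed most. In control rats it ranged from 15.11 to 15.50 at D0 and from 15.16 to 15.47 at D3. In exposed rats it ranged from 13.20 to 13.74 and from 12.29 to 13.48 at those days. It was under-expressed by -1.95 (SE 0.24, limma adjusted p = 4.02e-08) at D0 and by -2.49 (adjusted p = 1.83e-10) at D3. At D28 control rats ranged from 10.62 to 11.02 and exposed rats from 13.12 to 14.68, a change of 3.27 (limma adjusted p = 5.94e-13). At D90 and D180 it was over-expressed by 3.36 (limma adjusted p = 6.69e-13) and 2.97 (adjusted p = 1.15e-11). The exposed rats lay outside the range of the control rats of their day in all 5 comparisons.

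Tef, a relative of Dbp that binds the same D-boxes, changed in the same directions and by less. It was under-expressed by -0.95 at D0 and -1.43 at D3 and over-expressed by 0.82, 0.92 and 0.76 at the 3 later days, with limma adjusted p from 1.51e-13 to 1.09e-05. Nfil3, which represses through D-boxes and so opposes DBP and TEF, changed the other way. It was over-expressed by 1.03 at D0 and 1.17 at D3 and under-expressed by -1.03 at D90 and -0.84 at D180, with limma adjusted p from 3.37e-10 to 8.16e-06. At D28 it differed by -0.56 (SE 0.12, limma adjusted p = 0.00197), short of 1.5-fold.

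Bhlhe41, also called Dec2, a repressor at E-boxes, did not follow these genes. It was over-expressed by 1.06 at D0, 0.92 at D3 and 0.80 at D28, with limma adjusted p from 5.10e-07 to 0.000385. At D90 and D180 it differed by 0.54 (limma adjusted p = 0.057) and 0.30 (adjusted p = 0.593). Its relative Bhlhe40 was not called at any day, with 0.51 at D28 as its largest difference (limma adjusted p = 0.000677, under 1.5-fold). None of the other 21 genes, the RORs, kinases, ubiquitin ligases, co-repressors and Arntl2 among them, was called in any arm comparison. Their differences ranged from -0.68 for Huwe1 at D3 to 0.51 for Arntl2 at D28, and Rora, the activator that competes with REV-ERB at ROR elements, had differences from -0.34 to 0.05.

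The exposure effect on these genes was then compared with its own value at D0, as an interaction in limma. At D3 limma called 0 of the 26, with 5 at an unadjusted p under 0.05, where 0.678% of all genes were called. At D28, 4 were called (Dbp, Tef, Nfil3 and Bhlhe40), where 1.61% of all genes were. At D90, 3 were called (Dbp, Tef and Nfil3) and at D180 4 (the same and Bhlhe41), where 2.17% and 2.24% of all genes were. The effect on Dbp changed from D0 by 5.22 at D28, 5.31 at D90 and 4.93 at D180, with limma adjusted p from 1.33e-14 to 1.92e-13. The call of Bhlhe41 at D180 (-0.75, limma adjusted p = 0.0242) was lost without the rats whose animal number lay outside the run of their group (-0.52, adjusted p = 0.227), and also without control replicate 4 of D0, control replicate 4 of D180, or exposed replicate 2 or 3 of D180, with limma adjusted p from 0.058 to 0.0685. The call of Bhlhe40 at D28 (0.66) fell under 1.5-fold without them (0.57, limma adjusted p = 0.00759) and without exposed replicate 4 of D28 (0.58, adjusted p = 0.00659). With normexp both changes fell under 1.5-fold, to -0.57 and 0.58.

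Across the 5 days within an arm, 6 of the 26 were called in control rats by the moderated F test of limma (Dbp, Tef, Nfil3, Bhlhe40, Bhlhe41 and Arntl2), where 14.6% of all genes were. In exposed rats 4 were called (Dbp, Tef, Nfil3 and Bhlhe41), where 11.0% of all genes were. The means of Dbp spanned 4.51 in control rats and 1.42 in exposed rats, those of Tef 1.82 and 0.90, and those of Nfil3 1.51 and 0.96. Bhlhe41 was the reverse, with 0.65 and 1.14. Age cannot be told apart from time after exposure. Apart from an exposed rat of D3, the D0, D3 and D28 rats lay on other slides than those of D90 and D180. With slide as a block 4 were called in control rats and 3 in exposed rats, and over D0, D3 and D28 alone, which shared slides, 4 and 2. The share of all genes called in these fits was not counted, so nothing is read from these counts.

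**Figure D5:**
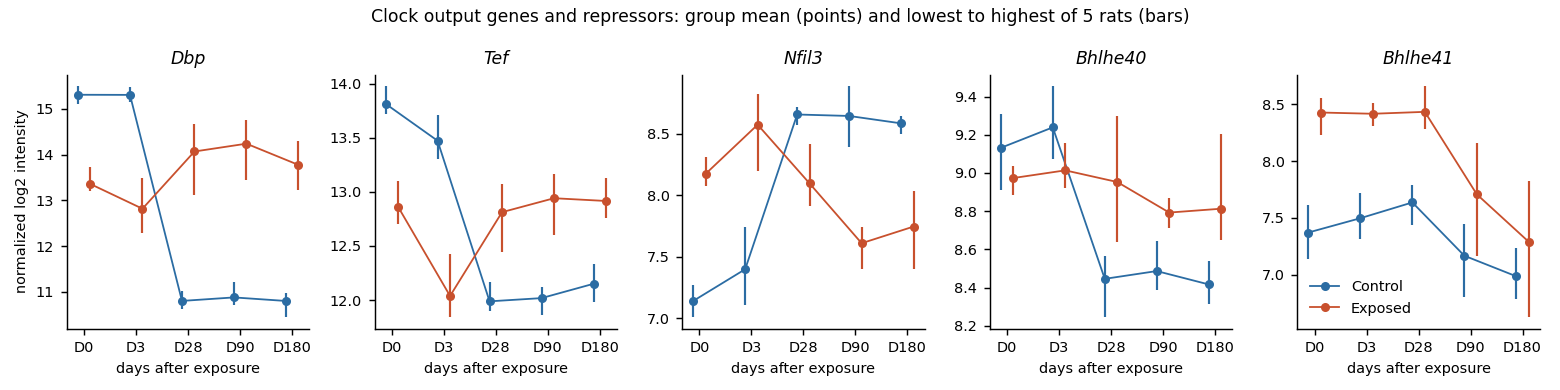
Dbp, Tef, Nfil3, Bhlhe40 and Bhlhe41 by day after exposure as normalized log2 intensity, control in blue and exposed in orange, with points at the mean of 5 rats and bars from the lowest to the highest rat. The arms of Dbp, Tef and Nfil3 cross between D3 and D28, and those of Bhlhe41 do not.

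Other gene lists that moved with the arms are given as values, and their part in the clock genes was not tested. Of 8 neutrophil markers, 3 were called higher in exposed rats at D0 and D3 (S100a8, S100a9 and Lcn2), 1 at D28 (S100a9) and none later. The mean of the list, centred per gene, lay between -0.25 and 0.20 in control rats of D0 and between 0.56 and 1.07 in exposed rats of D0. At D28 it lay between -0.39 and 0.12 and between -0.08 and 0.17. The mean differed between arms by 0.87 and 0.99 at D0 and D3 and by 0.18, 0.03 and 0.20 at the 3 later days in turn. The markers did not move as one: at D0 Lcn2 differed by 3.22, while Mmp8 and Mmp9 differed by -0.27 and -0.05. None of 7 macrophage, 4 red blood cell, 8 cardiac muscle or 6 fat genes tested was called by limma at any day, with 0 to 4 genes of each list at an unadjusted p under 0.05. Some genes of the cardiac muscle and fat lists gave signal all the same. Of the cardiac muscle genes, Myh6, Tnnt2, Tnni3, Actc1, Myl7, Myl4 and Ryr2 were well above background on all 50 arrays and Nppa on 0. Of the fat genes, Fabp4 and Cidea were on all 50, Adipoq on 30, Ucp1 and Lep on 9 each and Plin1 on 1. Which cells of the lobe gave these signals was not tested. The centred mean of the cardiac list differed between arms by -0.30 at D28 and by 0.12 at D90, and that of the fat list by 0.18 to 0.38 over the 5 days.

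Of 9 glucocorticoid responsive genes, 1 was called higher and 1 lower at D0 and at D3, 2 were called lower at D28 (Fkbp5 and Zbtb16), and none at D90 and D180. The centred mean of the list was lower in exposed rats at every day, by -0.27 and -0.45 at D0 and D3 and by -0.37, -0.23 and -0.35 at the later days. Its arms overlapped at every day, and the genes did not move as one. Zbtb16 differed by -2.19 at D3, -2.74 at D28 and -2.24 at D90, a large part of those means. Mt2A went the other way at D0 and D3, by 1.35 and 0.62. Of 9 heat shock genes, 4 were called lower at D0, 2 at D28 and 1 at D90, and limma called 0 at D3 and D180, with 0 and 4 at an unadjusted p under 0.05. Of 9 immediate early genes, 2 were called lower at D0 by limma and 0 later, with 5 at an unadjusted p under 0.05 at D90. Of the lymphocyte and mesothelial lists, Cd3g and Cd79b were called higher at D0 and Upk3b and Wt1 lower at D3.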

How the data were processed

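RNA of 50 rat lungs was measured on one-colour arrays, 5 rats in each of 10 groups named by the labels. The deposited files hold spot intensity values made by the authors with Agilent Feature Extraction 11.0.1.1, and the authors' table of normalized intensity values. That table was put on the log2 scale here and used as an alternative. The processed signal, already background-subtracted, was taken without control spots and marked spots. Probes above the 95th percentile of negative controls on at least 5 arrays were kept, log2 values were quantile normalized and the brightest probe stood for a gene. One model over all 10 groups was fitted with limma 3.58.1 in R 4.3.3, as in the study's methods but without its unnamed batch correction, with Benjamini-Hochberg adjustment over 25208 genes and calls at 1.5-fold and an adjusted p under 0.05. The code was tested on simulated data. Named genes were the 10 clock genes, any gene of the pathway list or the accompanying marker lists, and the 5 genes with the highest and lowest correlation with Arntl and Nr1d1. The 10 genes and all lists were chosen with earlier results of these data known. Alternatives were other scalings, background corrections, filters and probe rules, slide or replicate number as a block, and left-out rats. Array number limits the precision. Each rat had 1 array.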

Additional observations from a re-analysis of the deposited data

Results flagged for a closer look

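Dixon's test was run on 140 sets of 5 rats, each set being 1 gene in 1 group. In 3 sets a rat lay far from the others, and chance gives about 1 in 20. The sets share the same rats, so they are not independent. Npas2 was 8.634 in 1 exposed rat of D3. Per2 was 8.375 in 1 control rat of D180. Tef was 12.16 in 1 control rat of D28.

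The exposure effect differed from that at D0 by limma. For Dbp the change was 5.217 at D28, 5.312 at D90 and 4.926 at D180. For Tef it was 1.775, 1.874 and 1.716, and for Nfil3 -1.592, -2.065 and -1.869. For Bhlhe40 it was 0.665 at D28, and for Bhlhe41 -0.7523 at D180.

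For Arntl, Npas2, Per2, Per3, Nr1d1 and Nr1d2 all exposed rats lay on opposite sides of the control rats at 2 days. How many of all genes did so was not counted, so nothing is read from their number. The change in the difference was not tested, since these values chose the genes. It was -3.251 for Arntl (D90 minus D3), -2.744 for Npas2 (D28 minus D3), 2.737 for Per2 (D90 minus D3), 2.267 for Per3 (D28 minus D3), 6.308 for Nr1d1 (D28 minus D0) and 3.083 for Nr1d2 (D28 minus D0).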

How the results depend on the processing

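Only the differences of Clock at D0 and D3 changed sign: at D0 it went from 0.11 to -0.13 with the mean of all probes, and at D3 from -0.02 to 0.09 with slide as a block, to 0.08 with the mean of all probes and to at most 0.08 without 1 rat. Without a fold limit, the list genes called went from 3 to 6 at D28, from 3 to 5 at D180, from 6 to 11 across days in control rats and from 4 to 8 in exposed rats. With only D0, D3 and D28 and slide as a block, 2 were called across days in exposed rats. The share of all genes called was not counted under these alternatives or with rats left out. The list counts of this section therefore cannot be set against it. Leaving out 1 rat at a time gave 4 to 4 list genes called at D0 and D3, 3 to 5 at D28, 3 to 4 at D90 and 3 to 3 at D180. Effects differing from D0 numbered 0 to 0 at D3, 3 to 4 at D28, 3 to 3 at D90 and 3 to 5 at D180, and calls across days 5 to 7 in control and 4 to 4 in exposed rats. The clock genes without overlap numbered 5 to 6 at D0, 6 to 6 at D3, 6 to 7 at D28, 7 to 8 at D90 and 6 to 8 at D180. These last counts could not fall, since leaving out a rat can only narrow a group, so they are no check. Of the single values, 880 of the clock genes stayed within 1 SD and 20 moved further, and 661 of the list kept their call and 9 lost it, all for the changes of Bhlhe40 at D28 and Bhlhe41 at D180. Replicate numbers did not pair the rats: over 25 pairs r ran from -0.34 to 0.45. With the replicate block 3 list genes were called at D28 and 7 clock genes did not overlap at D28 and at D180. Array number and the dim Per1 probe limit the precision, and the hour of collection, age and slide run cannot be told apart from day.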

Other observations

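Immediate early genes, which respond within minutes to handling and stress, had a centred mean that was lower in exposed rats at D0, by -0.69, and at D90, by -0.78, with differences of 0.15, 0.16 and 0.12 at D3, D28 and D180. The heat shock list was lower by -0.77 at D0, with Hspa1b, Hsph1, Dnajb1 and Hspb1 called, and differed by 0.07 at D3. It was lower again at D28, D90 and D180, by -0.25, -0.30 and -0.38.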
